A study of Mus musculus with 6 samples.

Results

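The genes described here encode the TGF-β, activin and BMP signalling pathway. They were taken by symbol from a list of 42 genes in 7 roles: ligands, latency proteins, receptors and co-receptors, receptor SMADs with SMAD4, intracellular inhibitors, extracellular antagonists and decoys, and response genes. Of the 42, 39 had a line among the 16472 genes of the authors' deposited table and 36 had an adjusted p. Bmp2, Inhbb and Grem1 were not analysed here. Bmp4, Ltbp2 and Tgfbi had means of 5.27, 8.32 and 5.08 normalized counts and no adjusted p in the authors' deposited table.

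Cultures of HT22, an immortalized mouse hippocampal cell line, were given AA147 or vehicle for 16 h. The AA147 group had 3 libraries, from cultures given AA147 at a concentration that the labels write as 10 mM, and the control group had 3 libraries from cultures given vehicle, which the protocol names as DMSO. AA147 is a small molecule known to activate ATF6, a sensor of misfolded protein in the endoplasmic reticulum, and NRF2, a regulator of the response to oxidative stress. All cultures grew in medium with serum, which itself carries TGF-β and BMP activity, and all libraries came from 1 cell line.

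TGF-β family ligands are secreted dimers. The TGF-βs are held inactive in the matrix by a propeptide and by latent TGF-β binding proteins. A freed ligand joins a type II and a type I receptor kinase. TGF-β and activin receptors then phosphorylate SMAD2 and SMAD3, and BMP receptors phosphorylate SMAD1 and SMAD5. These enter the nucleus with SMAD4 and switch genes on or off, including those of their own inhibitors. In nervous tissue the pathway is known for its part in glial scarring, neuronal survival and the choice between neuronal and glial fates.

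The mean of a gene is its normalized count averaged over the 6 libraries by the authors, and no value per library was analysed here. A gene is called when its adjusted p in the authors' deposited table is under 0.05. The header does not name the numerator of the fold changes, which are read here as AA147 over vehicle. The NRF2 targets Nqo1 and Gsta4 stood at log2 fold changes of 0.93 and 1.84 and the ATF6 target Hspa5 at -0.80 in the authors' deposited table, so neither reading places both sets of targets higher with AA147. Under the opposite reading every direction below turns over. Group means are implied from the mean and the fold change of each gene with groups of equal size. Nothing in the labels says that the libraries of a group came from independent cultures, so the p-values measure only the spread between these libraries.

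The labelled cell type was compared with marker genes. Of 11 neuronal markers, 3 had a line in the authors' deposited table. These were Tubb3, a neuronal tubulin, with a mean of 1199, and Stmn2 and Slc17a7 with means of 6.24 and 3.93. The other 8, Rbfox3 and Map2 among them, were not analysed here. Of 8 fibroblast and mesenchymal markers, 7 were in the authors' deposited table, with means up to 254004 for Col1a2. Counts of genes of the other cell types were low or mixed. The astrocyte list had 2 of 5 genes in the table, the oligodendrocyte list 2 of 5, the microglial list 2 of 5 and the endothelial list 3 of 5. The endothelial markers Pecam1, Cdh5 and Tek had means of 4.96 to 5.77.

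Of the 36 pathway genes with an adjusted p, 14 were called, which is 38.9%. Over all 13597 genes with an adjusted p, 20.2% were called in the authors' deposited table. The pathway genes were chosen with earlier results of these data known. The shares here and by class of mean are therefore descriptions, and an excess of calls was not tested. The positive calls among the pathway genes were 5, beside 9.05% of all genes, and the negative calls were 9, beside 11.1%. The positive calls were Ltbp1, Inhba, Tgfbr1, Smurf1 and Tgif1. The negative calls were Ltbp3, Tgfbr2, Tgfbr3, Smad6, Ski, Fst, Id1, Id2 and Id3. With fold changes centred on the median of abundant genes, a shift of 0.01, the split was 3 positive and 9 negative, without Tgfbr1 and Tgif1.

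Calls depend on expression, so the count was also read within classes of mean. Of the 16 pathway genes with a mean from 1000 to 10000, 10 were called, beside 27.3% of all genes in that class. Of the 18 with a mean from 100 to 1000, 4 were called, beside 18.1%. Neither of the 2 genes with a mean under 100, Tgfb2 and Eng, was called, beside 7.12%. Most changes were under 0.5 in size on the log2 scale. A log2 fold change of 0.5 or more in size was held by 3 called pathway genes, Ltbp1, Ltbp3 and Fst. That is 8.33%, beside 5.85% of all genes called with such a change. The median size of a called change was 0.40 among the pathway genes, beside 0.35 over all called genes. The signed median over the 36 genes, 19 above 0 and 17 below, was 0.03 on the log2 scale, beside 0.01 over all genes tested.

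**Figure D1:**
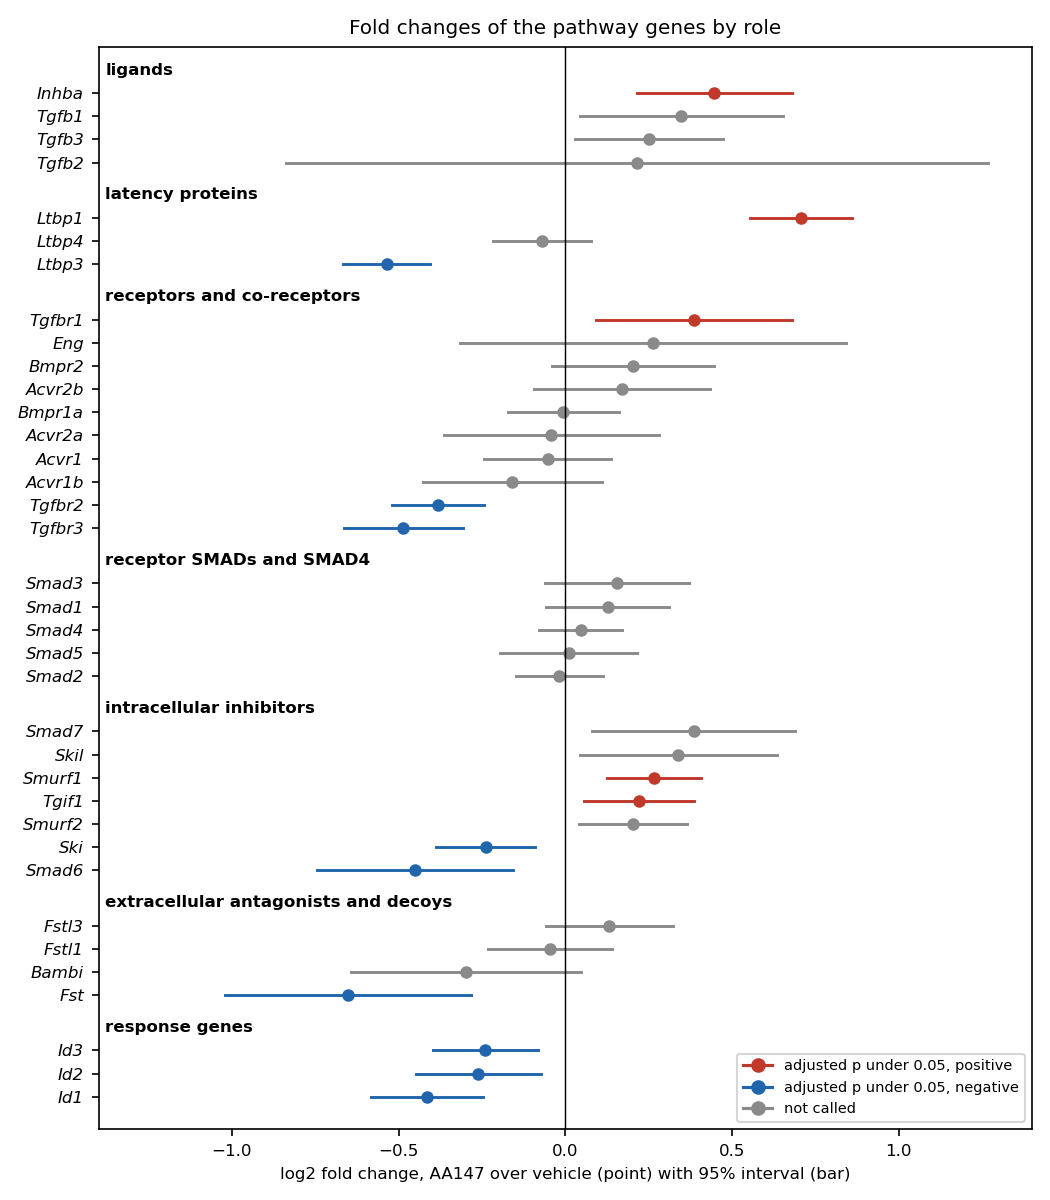
Log2 fold change of AA147 over vehicle (horizontal axis) for the 36 pathway genes with an adjusted p, grouped by role. Points are the authors' fold changes, bars are 95% intervals computed from the authors' standard errors, and colours mark the 5 positive and 9 negative calls. The 3 Id genes all lie below 0, Ltbp1 and Ltbp3 lie on opposite sides, and the 5 SMADs of the signalling core lie between -0.02 and 0.16.

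**Figure D2:**
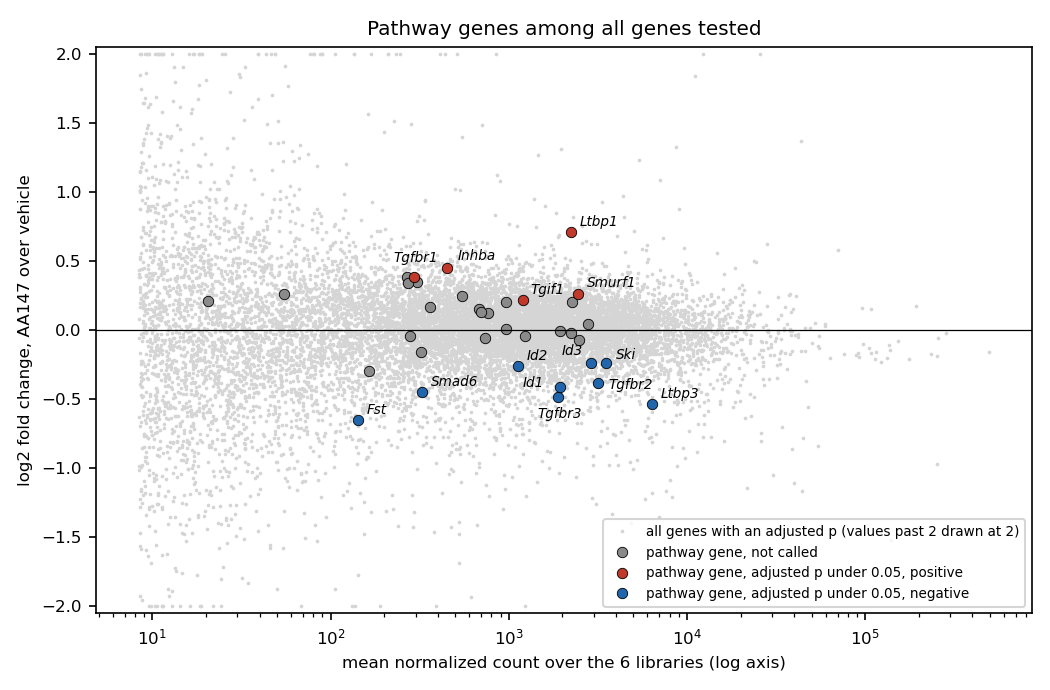
Log2 fold change (vertical axis) against the mean normalized count over the 6 libraries (horizontal log axis) for the 13597 genes with an adjusted p (grey dots) and the 36 pathway genes (large points). Ltbp1 at 0.71 and Ltbp3 at -0.54 exceed 93.4% and 89.2% of these genes in absolute size. The pathway genes not called lie inside the cloud.

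The latency proteins moved in opposite directions. LTBP1 and LTBP3 bind latent TGF-β covalently and tether it to the matrix, and LTBP4 does so mainly for TGF-β1. The implied mean of Ltbp1 was 1699 normalized counts with vehicle and 2774 with AA147. Ltbp1 rose by 63.3%, a log2 fold change of 0.71 (adjusted p 8.62e-18 with SE 0.078, from the authors' deposited table), the largest of the 36 pathway genes in absolute size. The implied mean of Ltbp3 was 7535 with vehicle and 5196 with AA147. Its log2 fold change was -0.54 (adjusted p 4.26e-14 with SE 0.066, from the authors' deposited table), and Ltbp3 fell by 31.0%. Per kilobase of transcript, Ltbp3 was 4.58 times the level of Ltbp1 in the vehicle group and 1.94 times in the AA147 group. The 95% intervals of these fold changes, 0.55 to 0.86 and -0.67 to -0.41, did not overlap. Ltbp4 stood at -0.07 (adjusted p 0.589 with SE 0.075, from the authors' deposited table), with an interval from -0.22 to 0.08. Ltbp2, which does not bind latent TGF-β, had a mean of 8.32 and no adjusted p. The median over the 3 tested latency genes was -0.07.

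Among the ligands, Inhba was the called gene of the 4 that had an adjusted p. Inhba encodes the βA subunit of activin A. Its implied mean was 381 with vehicle and 519 with AA147, and it rose by 36.4%, a log2 fold change of 0.45 (adjusted p 0.00184 with SE 0.12, from the authors' deposited table). Fst encodes follistatin, which wraps activin and keeps it from its receptors. The implied mean of Fst was 174 with vehicle and 111 with AA147. Its log2 fold change was -0.65 (adjusted p 0.00482 with SE 0.19, from the authors' deposited table), and Fst fell by 36.3%. Per kilobase of transcript, Inhba was 0.687 times the level of Fst in the vehicle group and 1.47 times in the AA147 group. The intervals of the fold changes, 0.21 to 0.68 for Inhba and -1.02 to -0.28 for Fst, did not overlap.

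The TGF-β ligand genes were not called. Tgfb1 had an implied mean of 268 with vehicle and 341 with AA147, and a log2 fold change of 0.35 (adjusted p 0.101 with SE 0.16, from the authors' deposited table). Tgfb3 had implied means of 502 and 597, and a log2 fold change of 0.25 (adjusted p 0.105 with SE 0.11, from the authors' deposited table). Both had an unadjusted p under 0.05 that the adjustment over all genes did not keep. Tgfb1 and Tgfb3 had similar levels per kilobase of transcript, at 138 and 132 normalized counts per kilobase. Tgfb2 was nearly silent, with a mean of 20.5, and its interval of -0.84 to 1.27 spans both directions. Bmp4, a BMP ligand, had a mean of 5.27 and no call. All 4 tested ligands had fold changes above 0, with a median of 0.30 on the log2 scale.

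The receptors for TGF-β itself were the called receptors. TGFBR2 is the type II receptor that binds the ligand, TGFBR1 is the type I kinase that it activates, and TGFBR3, or betaglycan, is a co-receptor that presents TGF-β and, with inhibin, blocks activin. Tgfbr2 had implied means of 3563 with vehicle and 2736 with AA147. It fell by 23.2%, with a log2 fold change of -0.38 (adjusted p 1.28e-06 with SE 0.070, from the authors' deposited table). Tgfbr3 had implied means of 2208 and 1577. It fell by 28.6%, with a log2 fold change of -0.49 (adjusted p 2.74e-06 with SE 0.092, from the authors' deposited table). Tgfbr1 had lower implied means, 256 with vehicle and 335 with AA147, and a log2 fold change of 0.39 (SE 0.15) in the authors' deposited table. Its adjusted p of 0.0495 was the one nearest to the limit among the calls, and it was 0.0605 after centring and 0.147 after a trend on transcript length, GC content and expression was subtracted. Per kilobase of transcript, Tgfbr2 was 9.59 times the level of Tgfbr1 in the vehicle group and 5.63 times in the AA147 group.

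No BMP or activin receptor was called, and neither was endoglin (Eng), a co-receptor of endothelial cells with a mean of 54.6. Log2 fold changes of the activin receptors Acvr1b, Acvr2a and Acvr2b were -0.16, -0.04 and 0.17 in the authors' deposited table, with adjusted p of 0.424 to 0.908. The BMP type I receptors Bmpr1a and Acvr1 stood at -0.01 (SE 0.085, adjusted p 0.976) and -0.05 (adjusted p 0.776 with SE 0.098, from the authors' deposited table). Their intervals, -0.17 to 0.16 and -0.24 to 0.14, bound the changes that these libraries could have missed. Bmpr2, the type II receptor for BMPs, stood at 0.20 (adjusted p 0.263 with SE 0.12, from the authors' deposited table). Its SE was 1.34 times that of the median gene at its expression, the highest such ratio among the 36 pathway genes. Bmpr1a was the most abundant of the BMP and activin receptors, at 318 normalized counts per kilobase of transcript, and Acvr2b the least, at 33.5. The median over the 10 tested receptors and co-receptors was -0.02.

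The SMADs that carry the signal showed no call among 5 genes by the authors' DESeq2 test, 0 of them had an unadjusted p under 0.05, and their median log2 fold change was 0.05. Smad2 and Smad3, the partners of TGF-β and activin receptors, stood at -0.02 (SE 0.067, adjusted p 0.903) and 0.16 (adjusted p 0.356 with SE 0.11, from the authors' deposited table). Smad1 and Smad5, the partners of BMP receptors, stood at 0.13 (SE 0.094, adjusted p 0.383) and 0.01 (adjusted p 0.968 with SE 0.10, from the authors' deposited table). Smad4, the shared partner, had a mean of 2791 and a log2 fold change of 0.05 (adjusted p 0.689 with SE 0.063, from the authors' deposited table). The narrowest intervals were those of Smad4, -0.08 to 0.17, and Smad2, -0.15 to 0.11. These values concern transcripts, and SMAD activity is set by phosphorylation, which was not measured.

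The intracellular inhibitors split. Of 7 genes, 2 were called positive and 2 negative, and all 7 had an unadjusted p under 0.05, as did 4300 of all 16472 genes. Their median log2 fold change was 0.22. SMURF1 and SMURF2 are ubiquitin ligases that mark SMADs and receptors for degradation. Smurf1 rose by 20.2%, from an implied mean of 2230 to 2680, with a log2 fold change of 0.27 (adjusted p 0.00218 with SE 0.072, from the authors' deposited table). Smurf2, at a similar level per kilobase, stood at 0.20 (adjusted p 0.0665 with SE 0.083, from the authors' deposited table) and was not called. Tgif1, a nuclear repressor that binds SMAD2, had implied means of 1104 and 1286 and a log2 fold change of 0.22 (adjusted p 0.0458 with SE 0.084, from the authors' deposited table), with an adjusted p of 0.0649 after centring.

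SMAD6 and SMAD7 block receptors from within, SMAD6 mainly those for BMPs and SMAD7 those for TGF-β and BMPs alike. Their genes had fold changes of opposite sign. Smad6 had implied means of 378 with vehicle and 277 with AA147, and it fell by 26.8%, with a log2 fold change of -0.45 (adjusted p 0.0177 with SE 0.15, from the authors' deposited table). Smad7 had implied means of 233 and 304 and a log2 fold change of 0.38 (adjusted p 0.0627 with SE 0.16, from the authors' deposited table), which was not a call. The intervals of the fold changes, -0.74 to -0.16 and 0.08 to 0.69, did not overlap. The related nuclear corepressors Ski and Skil, the latter also known as SnoN, had opposite signs too. Ski had implied means of 3784 and 3205, and it fell by 15.3%, a log2 fold change of -0.24 (adjusted p 0.0111 with SE 0.075, from the authors' deposited table). Skil had implied means of 240 and 303 and stood at 0.34 (adjusted p 0.0987 with SE 0.15, from the authors' deposited table) without a call. Smad7 and Skil are known early targets of TGF-β, and Smad6 is a known target of BMPs. The part of either signal in these fold changes was not tested.

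Outside the cell, Fst was the called gene among 4 antagonists with an adjusted p. Fstl3, a relative of follistatin that also binds activin, stood at 0.13 (adjusted p 0.382 with SE 0.097, from the authors' deposited table). Fstl1, a secreted glycoprotein related to both, stood at -0.05 (adjusted p 0.805 with SE 0.095, from the authors' deposited table). The level of Fstl3 per kilobase of transcript was 3.70 times that of Fst in the vehicle group and 6.37 times in the AA147 group. These ratios also depend on transcript length. Over the 6 libraries, Fstl3 and Fst stood at 357 and 75.4 per kilobase with canonical lengths, and at 453 and 58.2 with median lengths. Bambi, a receptor decoy that lacks a kinase, had implied means of 181 and 147 and stood at -0.30 (adjusted p 0.246 with SE 0.18, from the authors' deposited table). The median over the 4 tested antagonists was -0.17.

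**Figure D3:**
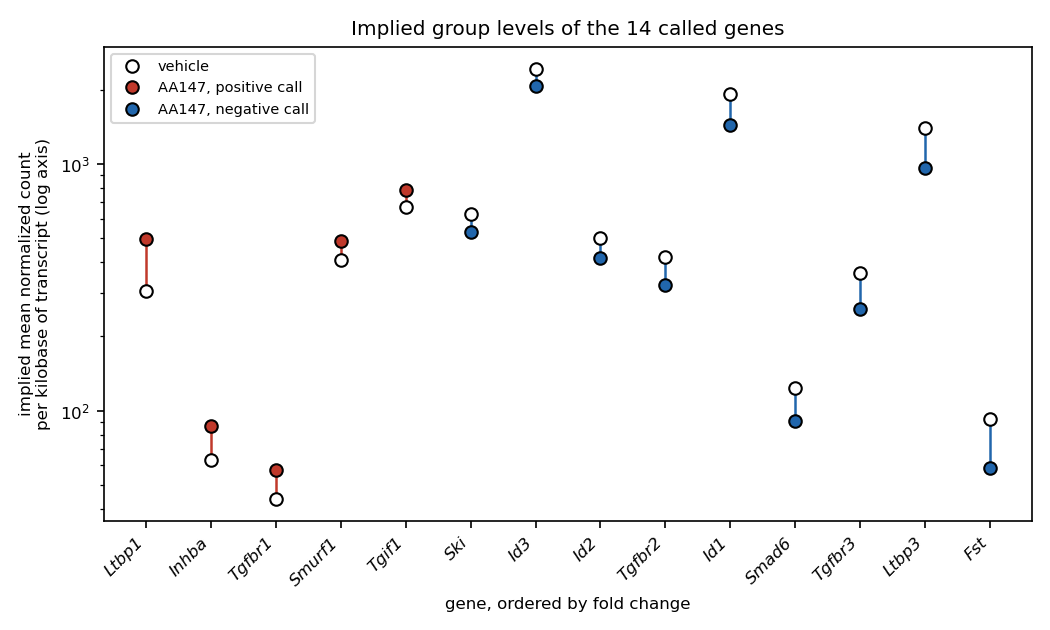
Implied mean normalized count per kilobase of transcript (vertical log axis) in the vehicle group (open points) and the AA147 group (filled points) for the 14 called pathway genes, ordered by fold change. No error is drawn because no value per library was analysed. Id3, Id1 and Ltbp3 were the most abundant, and the levels of Inhba and Fst change order between the groups.

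The Id genes were lower together. ID proteins are helix-loop-helix proteins without a DNA-binding part that hold back transcription factors of neuronal and other differentiation, and their genes are the classical direct targets of BMP signalling through SMAD1 and SMAD5. All 3 were called negative. Id1 had implied means of 2220 with vehicle and 1666 with AA147, and it fell by 25.0%, a log2 fold change of -0.41 (adjusted p 2.64e-05 with SE 0.086, from the authors' deposited table). Id2 had implied means of 1232 and 1028, and it fell by 16.5%, with -0.26 (adjusted p 0.0369 with SE 0.096, from the authors' deposited table). Id3 had implied means of 3125 and 2646, and it fell by 15.3%, with -0.24 (adjusted p 0.0182 with SE 0.080, from the authors' deposited table). The adjusted p of Id3 was 0.0812 after the trend was subtracted. The intervals of the 3 genes overlapped, so their order is not resolved. Their median log2 fold change was -0.26. Per kilobase of transcript, Id3 and Id1 stood at 2258 and 1684 normalized counts, above 93.2% and 89.8% of genes tested. Tgfbi, a matrix protein named for its induction by TGF-β, was nearly silent, with a mean of 5.08.

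The libraries were not stranded, so reads of genes on opposite strands that share exons cannot be told apart. In the GENCODE M39 annotation, 51.2% of the canonical exon bases of Id2 lie under exons of genes on the opposite strand. The share was 21.1% for Id1 and 16.6% for Id3. It was 58.9% for Fstl3, shared with Prss57, and 50.8% for Acvr2a, shared with Orc4. For Ltbp1, Inhba, Smad6 and Smurf1 it was 0.

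The starts of Id2, Id3 and Smad6, known BMP targets that were each called negative, are shown. A shared cause of these calls was not tested. Each is the RefSeq promoter of assembly GRCm38.p6, 250 bases up to the transcript start, written 5′ to 3′ on the gene's strand. Capitals mark GGCGCC, a GC-rich SMAD motif, CAGAC or its reverse complement GTCTG, a short SMAD site, and GTCTAGAC, the SMAD palindrome. The Id2 stretch is chr12:25096093-25096342 on the minus strand, the Id3 stretch chr4:136143572-136143821 on the plus strand, and the Smad6 stretch chr9:64022056-64022309 on the minus strand, run on by 4 bases to the end of the palindrome.
Id2: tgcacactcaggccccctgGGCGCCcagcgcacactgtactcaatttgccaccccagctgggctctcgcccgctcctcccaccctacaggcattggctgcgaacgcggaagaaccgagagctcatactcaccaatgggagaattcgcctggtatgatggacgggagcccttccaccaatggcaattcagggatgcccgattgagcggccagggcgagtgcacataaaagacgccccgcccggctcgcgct
Id3: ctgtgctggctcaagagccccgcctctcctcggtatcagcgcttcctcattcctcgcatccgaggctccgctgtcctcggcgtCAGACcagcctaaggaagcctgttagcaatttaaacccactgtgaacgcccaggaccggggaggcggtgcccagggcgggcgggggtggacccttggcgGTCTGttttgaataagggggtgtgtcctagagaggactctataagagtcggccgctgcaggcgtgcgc
Smad6: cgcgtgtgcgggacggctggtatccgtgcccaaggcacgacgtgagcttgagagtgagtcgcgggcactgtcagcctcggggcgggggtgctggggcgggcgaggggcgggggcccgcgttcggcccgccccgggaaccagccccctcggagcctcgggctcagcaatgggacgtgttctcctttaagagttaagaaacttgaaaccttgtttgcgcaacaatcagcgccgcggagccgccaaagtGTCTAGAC

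The palindrome at the start of Smad6 begins 4 bases before the annotated transcript start. It was found in 0.213% of all 32851 RefSeq windows of 300 bases, and of the 42 windows of the pathway genes only in that of Smad6. Id2 held 1 GGCGCC, which 11.9% of all windows and 31.0% of the pathway gene windows held. Among the latter were those of the positive call Tgfbr1 and of Bmpr1a, which was not called. Id3 held CAGAC or GTCTG at 2 places, which 49.6% of all windows and 47.6% of the pathway gene windows held at least once. Both strands were searched, and the motifs do not overlap in these stretches. Of the 42 genes, 32 matched an entry of the promoter table, with Bambi, Bmp2, Fst, Id1, Skil, Smad2, Smad4, Smad7, Tgfb3 and Tgfbr3 unmatched. A match is a description of letters, and binding was not measured.

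The rest of the pathway was read from 8 further lists holding 142 genes, 95 of them in the authors' deposited table and 84 with an adjusted p. Of these, 12 were called positive and 20 negative, beside 9.05% and 11.1% of all genes. The median mean of the 84 was 1783, and calls depend on expression. Of all genes, 27.3% were called at a mean from 1000 to 10000 and 41.7% at a mean of at least 10000. The further lists were not read within classes of mean, and they too were chosen with earlier results of these data known. Smad9 stands in a pair of these lists and was counted once in the total. It was not called.

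The list of other extracellular antagonists also holds the protease Bmp1. This list had 4 negative and 0 positive calls among 7 tested, beside 11.1% and 9.05% of all genes. Its median of -0.22 was the value of Bmp1. Chordin (Chrd), which sequesters BMPs, had implied means of 746 with vehicle and 453 with AA147, and its log2 fold change was -0.72 (adjusted p 7.26e-08 with SE 0.12, from the authors' deposited table). Bmper, a chordin-like modulator of BMPs, stood at -0.63 (SE 0.20, adjusted p 0.0116), and decorin (Dcn), a proteoglycan that binds TGF-β, at -0.81 (adjusted p 6.18e-05 with SE 0.17, from the authors' deposited table). The fourth call in this list was Bmp1, a protease that cleaves chordin rather than an antagonist, at -0.22 (adjusted p 0.00968, from the authors' deposited table). It was named after its values were seen.

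Activators and stores of latent TGF-β had 1 positive and 5 negative calls among 11 tested, with a median of -0.29. The share called was 54.5%, beside 20.2% over all genes. The median mean of these 11 genes was 5170, and 27.3% of all genes with a mean from 1000 to 10000 were called. Fibrillin 1 (Fbn1), the microfibril protein to which latent complexes attach, stood at -0.61 (adjusted p 0.00785 with SE 0.19, from the authors' deposited table). Its SE was 3.10 times that of the median gene at its expression. The activating genes thrombospondin 1 (Thbs1), Itgav, Itgb5 and Mmp2 were called between -0.35 and -0.29 in the authors' deposited table. The positive call was Furin, the protease that cleaves the propeptides of TGF-β and activin, at 0.27 (adjusted p 0.00101 with SE 0.069, from the authors' deposited table). These 5 genes were named after their values were seen.

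Other TGF-β response genes were called in both directions, 5 positive and 7 negative among 22 tested, with a median of -0.02. The share called was 54.5%, beside 20.2% over all genes. Cdkn1a, which encodes the cell cycle inhibitor p21, stood at 0.62 (SE 0.071, adjusted p 1.81e-16), and Cyr61, a matricellular protein now called Ccn1, at 0.58 (adjusted p 1.94e-08 with SE 0.094, from the authors' deposited table). Negative calls of at least 0.5 in size were the type I collagen genes Col1a1 at -1.52 and Col1a2 at -0.97, the collagen crosslinking enzyme Lox at -0.86, Angptl4 at -0.67 and the protease inhibitor Timp1 at -0.50 in the authors' deposited table. Col1a1 had implied means of 206337 with vehicle and 72014 with AA147.

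The collagen genes Col1a1 and Col1a2 are also in the fibroblast marker list, so that list is not independent of them. By the authors' deposited table, 6 of its 7 genes were called negative, beside 11.1% of all genes, and none positive. The range was from -1.52 for Col1a1 to -0.03 for Thy1. The genes outside the pathway lists, Col3a1, Pdgfra, Pdgfrb and Thy1, stood at -1.11, -0.81, -0.97 and -0.03 in the authors' deposited table. The implied sum of the list was 608217 normalized counts with vehicle and 275680 with AA147. Most of it came from Col1a2, at 336475 and 171534, and Col1a1, at 206337 and 72014. Dcn also stands both in this list and in that of the other extracellular antagonists. Among the neuronal markers Tubb3 was called positive at 0.43 (adjusted p 5.67e-05 with SE 0.092, from the authors' deposited table). The part of these markers in the pathway results was not tested, and fewer cells of a type cannot be told apart from less RNA per cell. Among the other markers, Slc1a3 and Tmem119 were called negative and Csf1r positive, and Aldh1l1 was not called.

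Other intracellular regulators had 3 positive and 1 negative among 22 tested, with a median of 0.04. Pmepa1, a TGF-β target that sequesters SMADs, had implied means of 218 and 318 and a log2 fold change of 0.54 (adjusted p 0.00199 with SE 0.15, from the authors' deposited table). Other SMADs and nuclear partners had 1 positive call among 9, the coactivator Crebbp at 0.30 (adjusted p 0.00192 with SE 0.081, from the authors' deposited table). Other BMP response genes had 1 negative call among 5, Atoh8, a transcription factor gene, at -0.21 (adjusted p 0.0306 with SE 0.076, from the authors' deposited table). The shares called among these regulators, nuclear partners and BMP response genes were 18.2%, 11.1% and 20.0%. None was above the 20.2% called over all genes. Of the other receptors and co-receptors, 3 were tested, and the BMP co-receptor Rgma was called at -0.29 (adjusted p 4.84e-04) and its binding partner Neo1 at 0.19 (adjusted p 0.0206, from the authors' deposited table).

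Of 26 other ligand genes, 7 were in the authors' deposited table and 6 had an adjusted p, and the other 19 were not analysed here. Of the 6, 1 was called positive and 1 negative, beside 9.05% and 11.1% of all genes, with a median of -0.15. Inha, the inhibin α subunit that turns activin subunits into an inhibitor, had implied means of 110 with vehicle and 69.9 with AA147 and stood at -0.65 (adjusted p 0.0272 with SE 0.23, from the authors' deposited table). Gdf15, a distant family member that signals through another receptor and is known as a stress hormone, stood at 2.76 (adjusted p 0.00726 with SE 0.83, from the authors' deposited table). Its mean was 10.3, with implied means of 2.67 and 18.0, so this fold change rests on few reads.

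**Figure D4:**
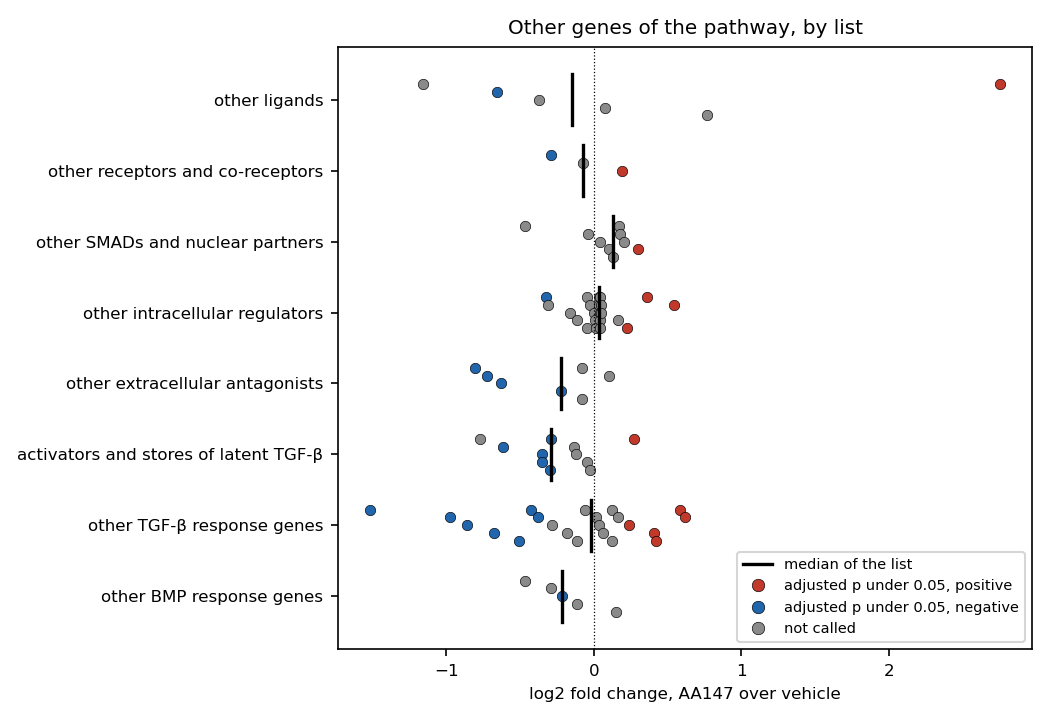
Log2 fold change of AA147 over vehicle (horizontal axis) for the genes with an adjusted p in the 8 further lists (rows). Each point is 1 gene, coloured by its call, vertical offsets only separate points, and black bars mark list medians. The antagonist list, which includes the protease Bmp1, and the activator list lie mostly below 0, with medians of -0.22 and -0.29. The TGF-β response genes spread to both sides.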

How the data were processed

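Messenger RNA of 6 HT22 libraries was sequenced without strand information, per the labels' protocols. Genome build mm9 and DESeq2 are named in the submitters' processing notes. The aligner, counter and annotation are not given in the sources used here.

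Per the file headers and the submitters' processing notes, the authors computed the deposited signal as the mean over libraries of counts normalized in DESeq2. Per the file headers, the authors computed each log2 fold change and its standard error, and the score, which is the quotient of both, in the same DESeq2 comparison. The p-values and their adjusted form were made by the authors from that score, per the file headers, and recomputing the Benjamini-Hochberg adjustment over 13597 genes gave the same values within 7.58e-07. The other 2875 genes, with means of at most 8.41, had none. Depth per library is unknown, and the means summed to 30768012. Values of single libraries were not analysed here, so every call is that of the authors' DESeq2 test between the 3 AA147 and 3 vehicle libraries, fitted across all genes.

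The members and lists were chosen with earlier results of these data known, and roles followed textbook function. Named genes were all members and, of the further lists, called genes with a log2 fold change of 0.5 or more in size or otherwise the 2 largest called. Intervals at 95% used the normal distribution. Levels were divided by GENCODE M39 canonical transcript lengths. An older symbol was matched through RefSeq. Alternatives were other thresholds, adjustments, centring and a robust regression on length, GC content and expression. The adjustment step was run on fold changes simulated with the authors' standard errors, which checks the code and not the authors' calls. The computations used statsmodels 0.14.6 and SciPy 1.17.1 in Python 3.11.15.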

Additional observations from a re-analysis of the deposited data

How the results depend on the processing

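No paired analysis was possible because values of single libraries were not analysed here. That also kept leaving out each replicate, other normalizations and other filters on counts from being run. The 14 called pathway genes became 8 at an adjusted p under 0.01, 3 with a log2 fold change of 0.5 or more in size and 5 with a Bonferroni adjustment, each stricter by construction. A rescaled test statistic, divided by 1.80, the robust SD over all genes, was chosen after seeing the data and left 2, Ltbp1 and Ltbp3. The other alternatives gave 12 to 14. For the further lists, 32 calls became 14 with the fold limit, 12 with Bonferroni and 8 with the divided statistic, and stayed between 25 and 34 otherwise. The median of the intracellular inhibitors was 0.22, and a mean weighted by the inverse squared SE, which favours precise genes such as Ski, was 0.10. After the trend was subtracted, Smad7 was called (0.39, adjusted p 0.0492), Tgfbr1 (0.30) and Id3 (-0.18) were not, and no member shifted by over 0.11. Centring ended the calls of Tgfbr1 (0.37) and Tgif1 (0.21). No called member changed sign. The 17 members at or above the median level per kilobase were 16 with median transcript lengths. Depth limits Tgfb2 and Eng, with SEs of 0.54 and 0.30.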
